A study of Mus musculus with 6 samples.

Results

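The let-7 family and its relative miR-98 were followed in mouse renal cortex through 9 array probes, those named mmu-let-7a, mmu-let-7b, mmu-let-7c, mmu-let-7d, mmu-let-7e, mmu-let-7f, mmu-let-7g, mmu-let-7i and mmu-miR-98, and written without the species prefix below. They were taken by name, with star (passenger) strands left out, from an array with probes for 197 miRNAs that could be tested and 402 others that lay too close to background. Cortex RNA came from 6 C57Bl6 mice, each measured as a sample of its own. The control group held 3 untreated mice, and the treated group held 3 mice kept for 10 days on a diet of 0.05% sodium with captopril, which blocks the enzyme that makes angiotensin II, at 0.5 g/L in their water. Treated replicate 1 was 5 months old and every other mouse 3.5 months. Treated replicate 1 and control replicate 3 were female and the other mice male. Control replicates 1 and 3 and treated replicate 2 were stained with Cy3, and control replicate 2 and treated replicates 1 and 3 with Cy5.

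Let-7 is a family of miRNAs first found in the worm Caenorhabditis elegans, where it times late larval development. In mammals its members accumulate as tissues differentiate and are abundant in most adult organs. A mature member guides an Argonaute protein to messenger RNAs that pair with its seed, the stretch of bases near its 5′ end, and lowers their stability and translation. Known targets include Hmga2, Lin28 and Ras genes, and the LIN28 proteins in turn block the maturation of let-7 precursors. miR-98 carries the same seed under a different name.

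The mature sequences are shown because the 9 miRNAs share a seed and differ elsewhere by few bases, which bears on how far each probe reads its own target. They are the targets named in the array tables, written 5′ to 3′ with the seed (bases 2 to 8) in capitals, and all 9 equalled a mature sequence of the RefSeq miRNA table (build GRCm38.p6).
let-7a: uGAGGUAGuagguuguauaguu
let-7b: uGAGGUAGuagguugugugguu
let-7c: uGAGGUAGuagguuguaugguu
let-7d: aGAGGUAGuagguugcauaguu
let-7e: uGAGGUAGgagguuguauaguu
let-7f: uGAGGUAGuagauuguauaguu
let-7g: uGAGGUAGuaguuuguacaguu
let-7i: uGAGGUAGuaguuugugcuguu
miR-98: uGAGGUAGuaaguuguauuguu

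All 9 sequences were 22 bases long with the seed GAGGUAG, and no other miRNA of the array carried it. Counting positions from 1 at the 5′ end, and giving the let-7a base first, let-7c differed from let-7a by A19G, let-7e by U9G and let-7f by G12A. Let-7b differed by A17G and A19G, and let-7d by U1A and U16C. Let-7g differed by G12U and U18C, and miR-98 by G11A and A19U. Let-7i stood farthest from let-7a, with G12U, A17G, U18C and A19U. Each pair of members thus differed at 1 to 6 of the 22 bases, so a probe may also bind relatives of its target, and how much it did was not tested.

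In the RefSeq table, 12 hairpins on 7 chromosomes encode these miRNAs, so the signal of let-7a, let-7c or let-7f is summed over more than 1 locus. On chromosome 13, Mirlet7a-1 (48538179 to 48538272), Mirlet7f-1 and Mirlet7d lie on the minus strand, with 262 bases between the hairpins of let-7a-1 and let-7f-1. On chromosome X, Mir98 (151913214 to 151913321) lies 786 bases from Mirlet7f-2, within the gene Huwe1. Mirlet7c-2 and Mirlet7b stand 622 bases apart on chromosome 15. Mirlet7e (chromosome 17, 17830352 to 17830444) lies within Spaca6 beside Mir125a, Mirlet7c-1 (chromosome 16) beside Mir99a, and Mirlet7a-2 (chromosome 9) beside Mir100, within Mir100hg. Mirlet7g lies within Wdr82 on chromosome 9, and Mirlet7i on chromosome 10 within no other gene of the table.

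The let-7 probes were among the brightest of the array, and control replicate 3 was dimmer at each of the 5 brightest, let-7a, let-7b, let-7c, let-7d and let-7f, than any other sample. The spot intensity of let-7a, with no background removed, was 56661 in control replicate 1, 52863 in control replicate 2 and 18621 in control replicate 3. It was 51088, 57615 and 43794 in treated replicates 1, 2 and 3. Let-7a was the brightest of all miRNA probes in 5 samples and the fourth brightest in control replicate 3. The ranges of the other 4 were 16608 to 53950 for let-7f, 16100 to 49801 for let-7c, 15323 to 47360 for let-7d and 13462 to 44189 for let-7b. Their lowest value was that of control replicate 3 throughout, and without that sample the highest value of each exceeded its lowest by 1.28-fold (let-7c) to 1.36-fold (let-7d). Empty spots had a median of 34.4 to 51.2 in Cy5 and of 219 to 458.8 in Cy3, and all 9 members lay above background in all 6 samples.

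The other 4 members varied more between samples, and not all in the same samples. Let-7e, the member with a single change next to the seed, read 37240, 16489 and 6263 in control replicates 1, 2 and 3 and 31105, 33148 and 14144 in treated replicates 1, 2 and 3. miR-98 read 22313, 3275 and 845 in the controls and 16119, 13700 and 2492 in the treated samples, a 26.4-fold span. For both, control replicates 2 and 3 and treated replicate 3 were low, and control replicate 1 and treated replicates 1 and 2 were high, so each group held high and low samples. Let-7g read 28215, 10936 and 11925 in the controls and 24019, 20987 and 22891 in the treated samples. Let-7i read 12687, 2873 and 6330 in the controls and 9413, 8616 and 9562 in the treated samples. These 2 were lowest in control replicate 2 and next lowest in control replicate 3, and highest in control replicate 1, which left all treated samples between the controls.

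**Figure D1:**
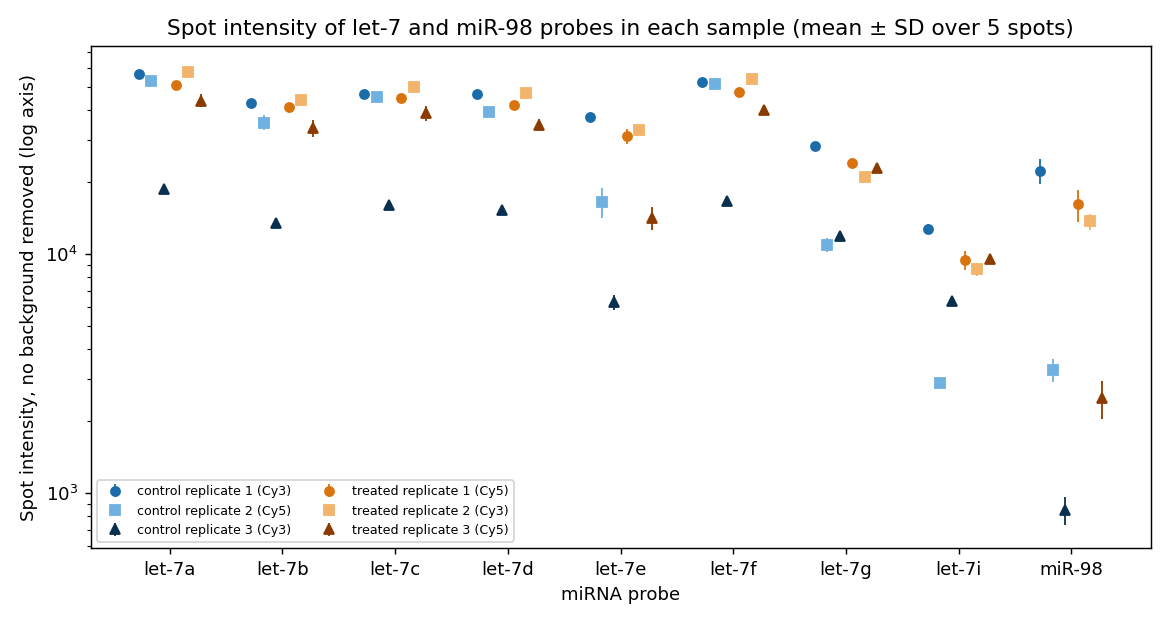
Spot intensity of each let-7 member and of miR-98 (log axis, background not removed) in the 3 control and 3 treated samples, with points and bars giving the mean and SD over the 5 spots of a probe. Control replicate 3 lies below all other samples at let-7a, b, c, d and f, while miR-98 spans 845 to 22313 with low and high samples in each group.

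The spots of a probe varied less than the samples did. The SD over the 5 spots of a sample was 0.902% to 8.78% of the mean for let-7g and let-7i, and at most 8.40% for let-7a, let-7b, let-7c, let-7d and let-7f. It reached 14.2% for let-7e and 7.72% to 18.0% for miR-98. The 26.4-fold span of miR-98 between samples was thus much wider than the spread over its spots, which measures the array and not the animals. Each mouse was a single sample with a single dye, so animal, staining and array cannot be told apart in that span.

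Sodium restriction with captopril is known to increase renin production, and the design asks how cortical miRNAs respond to it. For no member was a difference beyond the spread between samples detected. None of the 9 passed an adjusted p of 0.05, against 0 of all 197 miRNAs tested (0%), in limma with a term for dye. This fit held no term for the replicate number. In bulk cortex, fewer cells of a type and less of a miRNA per cell cannot be told apart. The differences below are on the log2 scale after normexp background correction and quantile normalisation, under which a miRNA gets the value of its rank in the sample.

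The 5 brightest members are given first. Normalised let-7a lay at 15.45, 15.45 and 15.18 in control replicates 1, 2 and 3 and at 15.45 in each treated sample, a difference of 0.07 (SE 0.21, 95% interval -0.47 to 0.60). The top rank fixes that value, so quantile normalisation cannot show let-7a above it. With no normalisation between samples the SE of let-7a was 0.58 and that of let-7f 0.60, beside 0.58 for let-7i. Let-7f differed by 0.04 (-0.51 to 0.60), let-7c by 0.15 (-0.43 to 0.74), let-7d by 0.20 (-0.62 to 1.01) and let-7b by 0.25 (-0.58 to 1.07). Without control replicate 3 let-7a differed by 0, and let-7d and let-7f by -0.03 each.

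Normalised let-7g lay at 14.20, 14.29 and 13.88 in the controls and 14.08, 14.20 and 14.29 in the treated samples, a difference of 0.03 (SE 0.23, 95% interval -0.55 to 0.61). Let-7i lay at 13.01, 12.94 and 11.79 in the controls and 12.82, 12.94 and 13.01 in the treated samples, and differed by 0.26 (SE 0.40, -0.74 to 1.25). Both groups overlapped for these 2 members, and only control replicate 3 stood apart for let-7i.

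Let-7e and miR-98 had the widest intervals of the 9 in this fit. Let-7e lay at 14.74, 14.56 and 11.68 in the controls and 14.56, 14.74 and 13.55 in the treated samples, a difference of 0.51 (SE 0.97, 95% interval -1.92 to 2.94). miR-98 lay at 13.88, 13.19 and 9.01 in the controls and 13.39, 13.65 and 10.97 in the treated samples, a difference of 0.59 (SE 1.59, -3.39 to 4.58). The adjusted p of each of the 9 members was 0.995. Leaving out control replicate 3 turned the difference of let-7e to -0.31 and that of miR-98 to -0.71, and leaving out control replicate 2 moved miR-98 to 2.19. Without that sample no control remains in Cy5, and the estimate sets treated replicate 2 by itself against both other controls.

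All 9 differences lay above 0, with a median of 0.20 beside -0.01 over the 197 tested miRNAs, but neither the sign nor the size of the 9 was stable. The median was -0.47 with cyclic loess normalisation, -0.35 under 75th percentile scaling, which moved the median of all tested miRNAs to -0.53, and 0.04 in the authors' processed values. With no normalisation between samples it was 0.47, where let-7i differed by 0.81 and miR-98 by 1.36 and the median of all tested miRNAs was 0.29. Set against the median of all tested miRNAs under the same setting, the median of the 9 lay 0.21 higher with quantile normalisation, 0.18 higher under 75th percentile scaling or with no normalisation, and 0.01 higher in the processed values, and differed by -0.48 with cyclic loess. With quantile normalisation the median was -0.03 without control replicate 3 and 0 without both samples numbered 3. No member was higher in all 3 same-numbered pairs, where 14.2% of tested miRNAs were, and none was lower in all 3, where 16.2% were. A pair difference of exactly 0 counts as neither, and let-7a, let-7b, let-7c, let-7d, let-7f and let-7i each had at least 1. These came from equal ranks in both samples, to which quantile normalisation gives equal values, so for these members the pair counts say little. In no member did every treated sample exceed every control, against 2.54% of the tested miRNAs, or fall below every control, against 2.03%. Let-7a held the top value in control replicates 1 and 2, so no treated sample could exceed them.

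For each member, the pair numbered 3 gave the highest treated minus control value of the 3 pairs, taken as plain differences of normalised levels. Same-numbered samples carried opposite dyes, so each such value is also a dye difference, with the treated sample in Cy5 in pairs 1 and 3 and in Cy3 in pair 2. Pair 3 also set a male treated mouse against a female control. Pair 1 set a female treated mouse of 5 months against a male control of 3.5 months. In pair 3 it was 0.27 for let-7a, 0.81 for let-7b, 0.79 for let-7d, 1.22 for let-7i, 1.88 for let-7e and 1.95 for miR-98. In pair 1 the differences of let-7e, let-7i and miR-98 were -0.18, -0.19 and -0.49, and in pair 2 they were 0.18, 0 and 0.45. The 2 samples numbered 3 lay below the other 4 by a mean of 3.54 for miR-98, the lowest such value of the 197 tested miRNAs, and by 2.04 for let-7e, the fourth lowest.

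**Figure D2:**
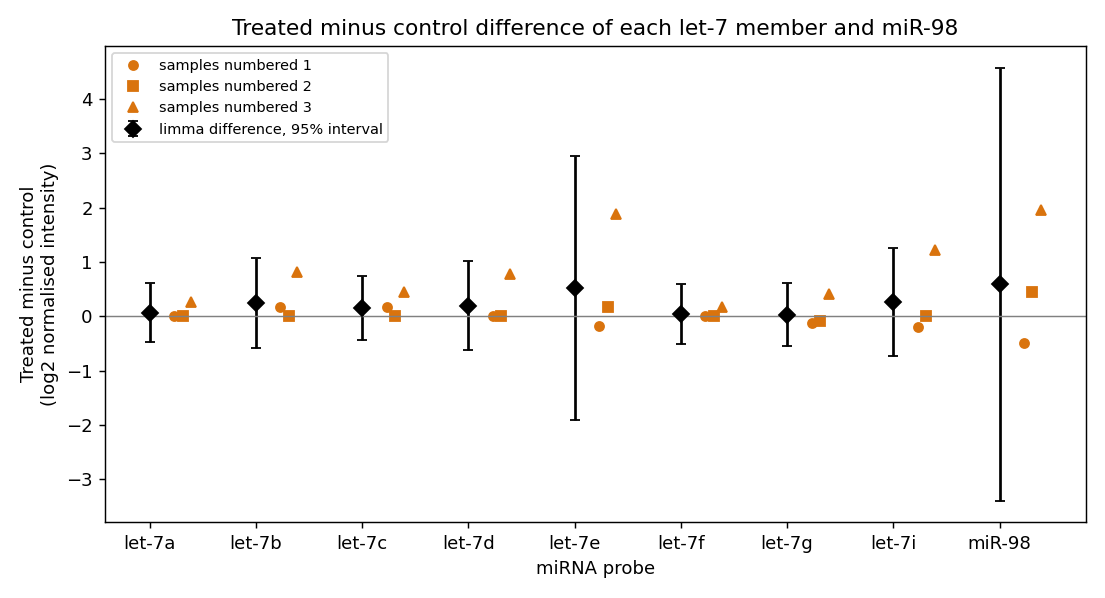
Treated minus control difference of each let-7 member and of miR-98 in log2 normalised intensity, with black diamonds and bars for the limma estimate and its 95% interval and orange points for the 3 same-numbered pairs. Every interval spans 0, and the pair numbered 3 gives the highest point for each member.

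Setting each member against let-7a within the same sample removes any scaling of whole samples, and probes are compared here only across samples, since brightness does not rank different miRNAs. Relative to let-7a, background-corrected let-7f, let-7c, let-7d and let-7b were nearly constant, with an SD over the 6 samples of 0.04, 0.04, 0.06 and 0.09 on the log2 scale. The SD was 0.51 for let-7e, 0.57 for let-7g, 0.89 for let-7i and 1.45 for miR-98. Let-7e differs from let-7a at 1 base, as let-7c and let-7f do, so the number of changed bases alone did not order these spreads.

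Before normalisation between samples, the 36 pairs of members had Pearson's r of 0.113 to 0.999 over the 6 samples. The 10 pairs among let-7a, let-7b, let-7c, let-7d and let-7f had r of 0.984 to 0.999. Without control replicate 3 the spot intensities of these 5 spanned only 1.28-fold to 1.36-fold, so these r rest largely on that dim sample. Let-7e and miR-98, which differ from each other at 3 bases, had r = 0.991, and let-7g and let-7i, which share G12U and U18C and differ at 2 bases, had r = 0.908. Pairs of let-7g or let-7i with let-7a, let-7b, let-7c, let-7d or let-7f had r of 0.113 to 0.641. The same 5 had r of 0.884 to 0.931 with let-7e and of 0.822 to 0.879 with miR-98, and let-7e with let-7d (0.931) thus exceeded let-7g with let-7i. After quantile normalisation let-7i had r = 0.989 with let-7a and let-7e had r = 0.998 with let-7f. These values describe 6 samples whose brightness is shared by all probes of a sample, and carry no test.

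Let-7i relative to let-7a was -2.18, -4.20 and -1.58 in control replicates 1, 2 and 3 and -2.44, -2.79 and -2.19 in treated replicates 1, 2 and 3. Let-7g relative to let-7a was -1.01, -2.27 and -0.65 in the controls and -1.09, -1.47 and -0.93 in the treated samples. Control replicate 2 was lowest and control replicate 3 highest for both. Control replicate 2 was also the sample with the fewest miRNAs above background (127, against 132 to 229 in the others), and its part in the low let-7g and let-7i was not tested. In the authors' processed values let-7g and let-7i spanned only 1.34-fold and 1.32-fold over the 6 samples, against 2.58-fold and 4.42-fold in spot intensity.

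Let-7b and let-7c were the 2 members whose position relative to let-7a did not overlap between the groups. Let-7b lay at -0.40, -0.58 and -0.47 in the controls and -0.31, -0.39 and -0.38 in the treated samples. Let-7c lay at -0.29, -0.22 and -0.21 in the controls and -0.18, -0.21 and -0.17 in the treated samples. Every treated sample thus lay above every control, which held for 1.02% of the 196 tested miRNAs set against let-7a, these 2 alone, and 0% lay below. Both margins were narrow. For let-7b the highest control lay at -0.3991 and the lowest treated sample at -0.3860. For let-7c they lay at -0.2115 and -0.2113. The SD over the spots of a sample was 2.39% to 8.40% of the mean for let-7b and 1.89% to 7.16% for let-7c. Mean differences were 0.12 for let-7b and 0.05 for let-7c. They were singled out after their values were seen, and an exact two-sided permutation test of 3 against 3 samples cannot go below p = 0.1. In the authors' processed values the groups overlapped for both: let-7b was 65.2% to 76.4% of let-7a in controls and 76.0% to 81.1% in treated samples, and let-7c 79.6% to 91.3% and 87.1% to 88.7%.

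**Figure D3:**
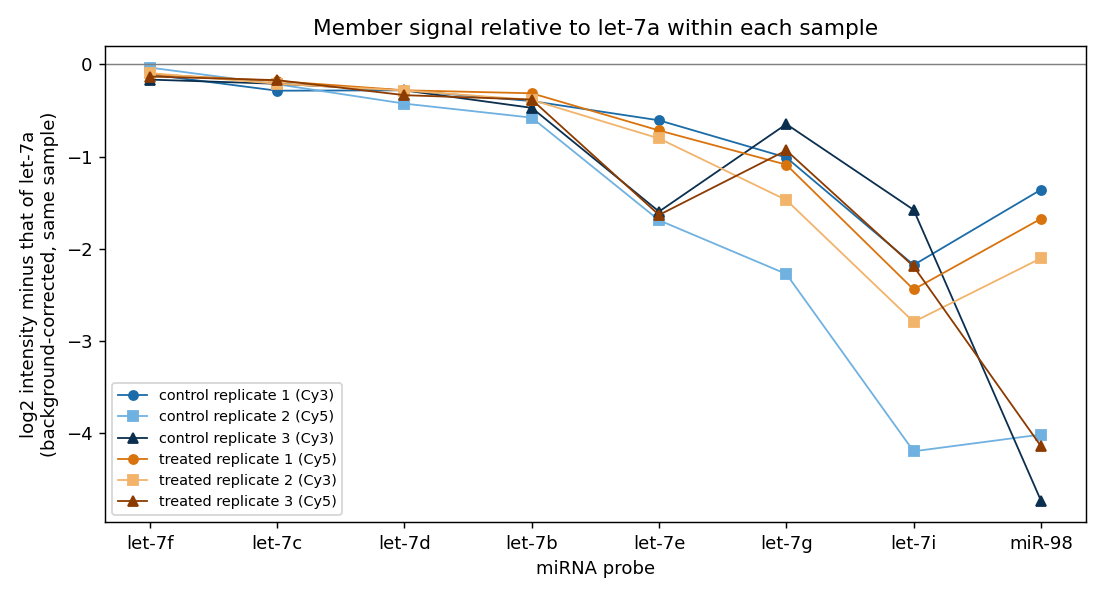
Log2 background-corrected intensity of 8 members minus that of let-7a in the same sample, with a line for each of the 3 control (blue) and 3 treated (orange and brown) samples. The samples lie together from let-7f to let-7b and spread at let-7e, let-7g, let-7i and miR-98, where control and treated lines cross.

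miR-98 and let-7e were high in the same 3 samples, and so was a calibration control of the array. After removal of the median empty spot, miR-98 was 39.1% of let-7a in control replicate 1, 6.10% in control replicate 2 and 3.40% in control replicate 3. It was 31.5% in treated replicate 1, 23.2% in treated replicate 2 and 5.62% in treated replicate 3. Let-7e was 65.5%, 31.1% and 32.8% of let-7a in the controls and 60.9%, 57.2% and 32.2% in the treated samples. The same 3 samples, control replicate 1 and treated replicates 1 and 2, were thus high for both members.

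Among the spike-in calibration controls of the array, a-PUC2MM2d was 15.2%, 3.19% and 1.37% of its companion a-PUC2PM in control replicates 1, 2 and 3. It was 7.51%, 8.52% and 0.513% in treated replicates 1, 2 and 3. The 3 samples with the highest share of this control were those with the highest miR-98 and let-7e. The finer order differed. Treated replicate 2 had a higher share of the control than treated replicate 1, but less miR-98 (23.2% against 31.5% of let-7a). Treated replicate 3 had the lowest share of the control, but more miR-98 than control replicate 3 (5.62% against 3.40%). Each name had 4 spots per sample, and the files do not say what the names stand for. Of the other 4 control pairs named in the same way, PUC2MM was 58.2% to 83.1% of PUC2PM and did not order the samples so. The 3 pairs ending in 20B stayed at or below 0.153%, and none was highest in the same 3 samples. For a2-PUC2MM-20B the share was 0.0864% to 0.153% in Cy3 samples and 0.0359% to 0.0439% in Cy5 samples. For a3-PUC2MM-20B it was 0.0993% to 0.133% in Cy3 and 0.0390% to 0.0419% in Cy5. The part of this control's behaviour in the miR-98 and let-7e values was not tested.

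**Figure D4:**
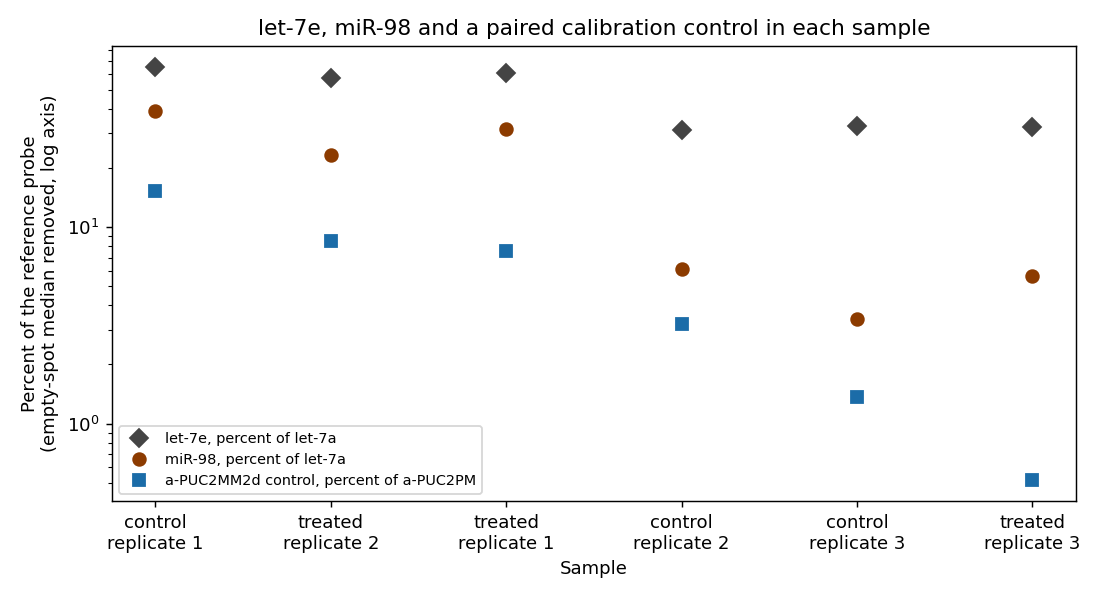
Background-subtracted miR-98 and let-7e as a percent of let-7a, and the calibration control a-PUC2MM2d as a percent of a-PUC2PM, in each of the 6 samples (log axis), ordered by the control. miR-98 is 39.1% of let-7a in control replicate 1, where the control is at 15.2%, and 3.40% to 6.10% in the 3 samples where the control is at 3.19% or less.

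The spread of miR-98 was wide on each scale. In the authors' processed values it read 16115, 8590 and 444 in control replicates 1, 2 and 3 and 13616, 13013 and 2243 in treated replicates 1, 2 and 3, a 36.3-fold span. Let-7e spanned 3.86-fold in those values and let-7a 1.81-fold. Over all 197 tested miRNAs the normalised level of miR-98 had the second widest range over the samples, 4.86 on the log2 scale, and that of let-7e, 3.06, the ninth, beside a median range of 0.88. The 2 female mice lay far apart for miR-98, at 9.01 in control replicate 3 and 13.39 in treated replicate 1.

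The passenger strands of the let-7 hairpins, cut from the arm opposite the mature strand, were mostly near background. Of 7 on the array 4 were tested, 2 lay above background in all 6 samples, and none passed the test. The brightest was let-7d*, at 8.72, 10.08 and 8.30 in the controls and 9.50, 10.12 and 9.01 in the treated samples on the normalised log2 scale. It differed by 0.39 (SE 0.58, 95% interval -1.06 to 1.85, adjusted p = 0.995 in limma) and was higher in treated mice in all 3 pairs. Let-7b* and let-7f* were lower in all 3 pairs, with differences of -0.10 and -0.08, and let-7a* differed by -0.18. Let-7d* was highest in the 2 samples numbered 2, whereas miR-98 was highest in control replicate 1.

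Several miRNAs are encoded beside let-7 hairpins and were read on the same arrays. All 5 of miR-99a, miR-99b, miR-100, miR-125a-5p and miR-125b-5p were tested, none passed, and 2 of the differences lay above 0, with a median of -0.01. miR-125a-5p, the neighbour of let-7e, lay at 12.57, 13.01 and 12.33 in the controls and 13.01, 13.01 and 12.94 in the treated samples, a difference of 0.26 (SE 0.25, 95% interval -0.35 to 0.88). miR-99b read 10.08 in control replicate 3, its highest sample, where let-7e was lowest. miR-99a and miR-100 were likewise highest in control replicate 3, at 9.37 and 8.14, where let-7c and let-7a were lowest. Among the 5, only miR-125b-5p had treated samples (12.41, 12.23 and 12.82) that all lay above the controls (11.79, 12.03 and 12.03). The same held for 2.54% of the 197 tested miRNAs. Its difference was 0.45, with an adjusted p of 0.995 in limma.

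The miRNAs outside the family whose normalised levels were most like the mean of the 9 members over the 6 samples were miR-200c (Pearson's r = 0.989), miR-10a (0.982), miR-15b (0.970), miR-196a (0.955) and miR-193* (0.953). miR-98 alone was most like miR-155 (0.984), miR-196a (0.984) and miR-193* (0.980). Let-7e was most like miR-200c (0.989), miR-10a (0.976) and miR-15b (0.968), and let-7i most like miR-200b (0.969), miR-26b (0.930) and miR-10a (0.926). These are descriptions over 6 samples with no test. Control replicate 3 was the lowest sample for miR-200c, miR-10a, miR-15b, miR-155, miR-196a and miR-193*, as it was for the 9 members. The passenger strand miR-193* lay near background, at 6.46 to 6.84, and above it in only 3 samples. Its range was 0.38 on the log2 scale, against 4.86 for miR-98.

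Of the miRNAs listed for kidney, all 10 were tested and 8 lay above background in all 6 samples. miR-141 did so in 4 samples and miR-204 in 3, with miR-204 at 6.37 to 6.78 on the normalised log2 scale. Of 7 markers of liver, striated muscle, brain and endocrine pancreas, 1 lay above background in all 6 samples (miR-375, of endocrine pancreas) and 3 were tested, the liver miR-122 and the brain miR-9 each above background in 3 samples. The striated muscle miR-1, miR-133a and miR-206 were not tested and were highest in control replicate 1, at 8.96, 6.82 and 6.87. In the other samples miR-1 lay at 6.44 to 6.95. Of the markers of blood and vessels, 2 of 3 erythrocyte, 3 of 6 leukocyte and 4 of 4 vascular miRNAs were tested, and none passed. The 2 tested erythrocyte miRNAs had a median treated minus control difference of 0.84, whereas the leukocyte and vascular medians were 0.02 and -0.05. Their part in the let-7 values was not tested. Over the 5 members of the miR-30 family, another bright family of the cortex, the median difference was -0.17, with all 5 below 0 and none past the threshold.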

How the data were processed

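Small RNA was tailed, tagged and stained with Cy3 or Cy5, and arrays were run by a service provider, per the labels' protocols. Each sample has a spot table of 3968 spots, 5 per miRNA and 669 empty. Per the file headers, the deposited values are mean spot intensity and its SD on a linear scale. Another deposited table gives the authors' processed intensity for every miRNA, by a normalisation that no source used here states. Its scale and centring stay unknown (median 17 to 19 per sample), and it served as an alternative on the log2(value + 1) scale.

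Intensities were background-corrected with normexp (offset 50, all spots), averaged as log2 over the spots of a probe and quantile-normalised over all miRNA probes (R 4.3.3, limma 3.58.1). miRNAs above the mean of the empty spots by over 3 SD in at least 3 of 6 samples were tested (197). The groups were set against each other in limma (lmFit, eBayes, two-sided, Benjamini-Hochberg) with a dye term. The approach was checked on simulated data whose noise was independent between samples and alike for every miRNA. That check does not cover the correlation of same-numbered samples given below. Only 3 samples a group were measured, which bears on the precision. The series calls the samples individual mice.

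Deviations from the group mean, over tested miRNAs, gave r = 0.447, 0.460 and 0.781 between same-numbered samples, each over 0.1. Numbers were thus taken as pairs for the pair differences and for an alternative fit with a replicate block. The main limma fit had no term for them, so its SEs and intervals treat same-numbered samples as independent. The labels do not say what a number marks. Same-numbered samples carry opposite dyes and could be both channels of 1 array, although the series describes a single replicate per array, so pair differences hold a dye difference. Alternatives covered background, normalisation, spot summary, filter, covariates and left-out samples. Named miRNAs were the members, their passenger strands and cluster neighbours, and the nearest profiles by Pearson's r. Members and lists were chosen with earlier results of these data known. RefSeq positions are GRCm38.p6; the array names no build.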

Additional observations from a re-analysis of the deposited data

How the results depend on the processing

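No member passed an adjusted p of 0.05 in limma under any of the 21 alternatives, nor did any other miRNA (0 in each). At an unadjusted p under 0.05 the count was 1 of 197 with all samples and 0 to 19 over the alternatives, with 0 members in each. A block for the replicate number beside dye left 1 residual degree of freedom, a median of the 9 differences of 0.1963, and a smallest adjusted p of 0.810 among the members. The block changed no call. Cyclic loess moved that median to -0.466 and put let-7a at -0.6493, let-7b at -0.466, let-7c at -0.5887, let-7d at -0.5586, let-7e at -0.1217, let-7f at -0.6591 and let-7g at -0.2118. Scaling to the 75th percentile moved it to -0.3481 and put let-7a at -0.4879, let-7b at -0.3481, let-7c at -0.4493, let-7d at -0.4297, let-7e at -0.08117, let-7f at -0.5089, let-7g at -0.1778 and let-7i at -0.006419. The authors' processed values gave -0.06805 for let-7a, -0.03717 for let-7c, -0.03618 for let-7d and -0.08574 for let-7f. Let-7f also lay at -0.007285 after scaling to the median of tested non-members, and let-7g at -0.01708 with the median of the spots. Without both samples numbered 3, let-7g lay at -0.1288, let-7i at -0.1062 and miR-98 at -0.03189. The cause of these turns was not tested. Leaving out 1 sample at a time gave ranges of 0 to 0.1204 for let-7a, -0.08698 to 0.4314 for let-7b, -0.03838 to 0.2516 for let-7c, -0.05177 to 0.3627 for let-7d, -0.4797 to 1.395 for let-7e, -0.05374 to 0.1187 for let-7f, -0.1122 to 0.1784 for let-7g, -0.04847 to 0.4895 for let-7i and -0.9881 to 2.192 for miR-98, and -0.05374 to 0.3627 for the median. The lower ends of all but let-7a and let-7i come from leaving out treated replicate 2, where control replicate 2 by itself is set against treated replicates 1 and 3. The upper ends of let-7e and miR-98 come from leaving out control replicate 2, where treated replicate 2 stands by itself. With no normalisation between samples the median was 0.4724. Empty spots lay 3 SD or more under every member in every sample, and miR-98 in control replicate 3 read 3.86 times the median empty spot. The block beside dye gave a lower SE than the main fit for each member. It was 0.43 against 0.97 for let-7e and 0.50 against 1.59 for miR-98. Each group held only 3 mice, and what set the precision was not tested.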
